A study of Homo sapiens with 9 samples.

Results

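The genes described here are 38 genes that cells switch on when oxygen is low and that encode no glycolytic enzyme, and 37 of them had a row in both count tables, among 13017 genes in the table of sh1-*TUG1*, 12953 in that of sh2-*TUG1* and 12854 in both. They were chosen by name as known targets of the hypoxia response, but with earlier results of these data known, so their counts are a description. *STC1*, the remaining listed gene, was not analysed here. HepG2 is an established human liver cancer line, and RNA-seq was done on 9 libraries, 3 each of sh-Con (labelled with the genotype WT), sh1-*TUG1* and sh2-*TUG1* (both labelled TUG1 knockdown). The sh1-*TUG1* and sh2-*TUG1* lines each express a different short hairpin RNA against *TUG1*, a long noncoding RNA, and sh-Con expresses a control hairpin. All 3 lines were made with a lentiviral vector whose hairpin is expressed under doxycycline and were grown in low-glucose medium. No label names a low-oxygen culture for any group. Oxygen level and cell density at RNA collection are not given in the sources used here, so whether they were equal between the lines is not known. The sources used here name no separate clones or cultures, and the study's methods call the 3 libraries of a group technical replicates, so that the p-values measure only the spread between these libraries.

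The hypoxia response runs through the hypoxia-inducible factors. Their alpha subunits (HIF1A and EPAS1) are hydroxylated on prolines by the EGLN enzymes when oxygen is present, and the von Hippel-Lindau protein then marks them for degradation. When oxygen falls, the alpha subunits accumulate, pair with ARNT and bind DNA at a short motif with the core ACGTG or GCGTG, and in liver they raise genes for glycolysis, iron and red cell supply, mitochondrial turnover, matrix enzymes and feedback on the pathway itself. The genes described here belong to the branches other than glycolysis.

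Library totals ranged from 33054291 to 39393293 counts. The libraries of a group were not copies of each other, since the chi-square per degree of freedom between replicates ranged from 6.74 to 24.8. The first control library stood apart most: the SD of its log2 ratio to the other replicates was 0.198 over 10772 genes, and that of the other 8 libraries ranged from 0.143 to 0.167. All 10 hepatocyte lineage markers were listed, at means of 103 to 13505 CPM in sh-Con. Of 4 markers of other cell types, *PTPRC* (leukocytes) and *COL1A1* (fibroblasts) were not analysed here, *PECAM1* (endothelium) averaged 7.64 CPM and *EPCAM* (epithelium) 158 CPM. *TUG1* itself was not analysed here, so the libraries' labels could not be checked against the targeted transcript. CPM values are counts divided by the TMM-scaled size of their library, and fewer cells and less RNA per cell cannot be told apart in them.

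Most of these hypoxia-response genes had lower levels in the knockdown lines. With the quasi-likelihood test of edgeR and a Benjamini–Hochberg adjusted p under 0.05 over the genes of a table, 29 of 37 were lower in sh1-*TUG1*, where 12.3% of all genes tested were lower, and 0 were higher, where 12.5% of all genes were. In sh2-*TUG1*, 23 were lower, against 21.9% of all genes, and 2 were higher (*MAFF* and *JMJD6*), against 21.6% of all genes. Both comparisons use the same 3 control libraries. Their median log2 fold change reached −0.48 for sh1-*TUG1* and −0.53 for sh2-*TUG1*, beside 0.0027 and −0.0048 over all genes tested. A negative log2 fold change was seen for 35 of the 37 with the first hairpin and for 30 with the second, and 49.6% and 50.6% of all genes had one. The knockdown libraries all lay under the lowest control for 30 of these genes in sh1-*TUG1* (20.2% of all genes) and for 25 in sh2-*TUG1* (27.3% of all genes).

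By their calls the genes fell into 4 groups. Of the 37, 22 were lower in both lines, and 7.10% of the genes in both tables were. A further 7 passed the test in sh1-*TUG1* only (*PLOD2*, *RORA*, *KLF10*, *MAFF*, *WSB1*, *RAB20* and *ANKRD37*), as did 5.34% of the genes in both tables. *PPFIA4* passed in sh2-*TUG1* only, as did 15.0% of the genes. The other 7 were lower in neither line (*JMJD6*, *ZNF395*, *CCNG2*, *INSIG2*, *TMEM45A*, *TPBG* and *AK4*), which held for 72.6% of the genes. With a fold change over 1.5 required as well, 13 genes were lower in sh1-*TUG1* (2.52% of all genes), 15 in sh2-*TUG1* (8.97% of all genes) and 9 in both (1.78% of the genes in both tables). Passing in 1 line only does not show that the lines differ, so sh2-*TUG1* was also tested against sh1-*TUG1*, with all 9 libraries in the fit. By that test 17 of the 37 genes differed, a share near that of all genes (42.7%), and the same held by direction, with 8 lower in sh2-*TUG1* (21.7% of all genes were) and 9 higher (21.0% of all genes). The 9 genes higher in sh2-*TUG1* hold 6 of the 7 that passed in sh1-*TUG1* only, together with *ERRFI1*, *AKAP12* and *JMJD6*. Those 7 were picked by calls from the same libraries, which favours a difference in this direction, so the 6 are no separate evidence. The plot of both lines' fold changes shows these groups.

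**Figure D1:**
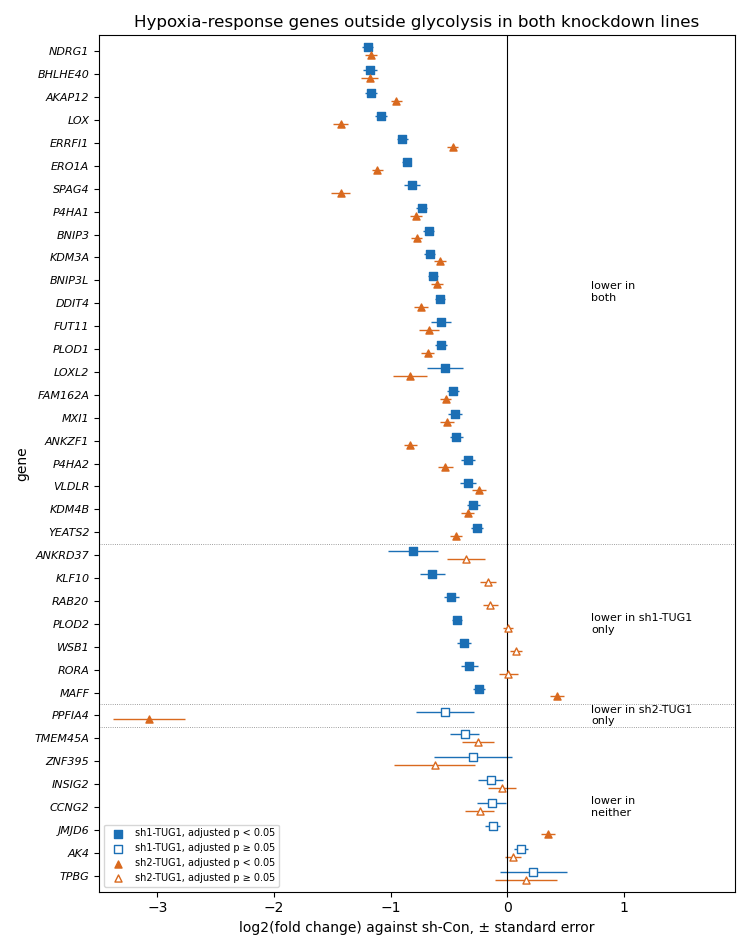
Log2 fold change against sh-Con (x axis) with its standard error for each of the 37 genes (y axis), with squares for sh1-TUG1 and triangles for sh2-TUG1, filled where the adjusted p was under 0.05, and dotted lines between the 4 groups of calls. The 22 genes lower in both lines stand left of 0 in each. They lie between −1.20 and −0.26 for sh1-TUG1 and between −1.43 and −0.24 for sh2-TUG1. The triangles of the genes lower in sh1-TUG1 only spread from −0.36 (*ANKRD37*) to 0.42 (*MAFF*).

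The promoters of these genes were searched for the motif of the hypoxia-inducible factors, in RefSeq windows from 250 bases before to 50 after a gene's start (GRCh38.p14). The letters ACGTG and GCGTG were searched on both strands, and CACGTG, which reads the same on both strands, counts as a match on each. Of the 27 genes with a window, 18 (66.67%) held ACGTG, beside 24.87% of all 27305 genes with a window and 32.53% of the 9354 of these that are in both count tables. GCGTG was in 16 (59.26%), beside 40.57% and 58.85%. ACGTG was found in 10 of 16 genes lower in both lines with a window, in 4 of 5 lower in sh1-*TUG1* only, in the window of *PPFIA4*, and in 3 of 5 lower in neither. A gene with several starts has several windows, which raises its chance of a match. ACGTG was in 25 of the 41 windows of these genes (60.98%). It was in 21.41% of all 35116 windows and in 25.47% of the 13679 windows of genes in both count tables. The genes were listed as known targets of the hypoxia response, so a high share of ACGTG can follow from that choice. A match is a description of the sequence, and binding was not measured.

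The stretches printed here come from genes of each group, so that the shared core ACGTG can be set beside unlike levels. The bases around the core differ: those of *BNIP3*, *WSB1*, *PPFIA4*, *AK4* and *CCNG2* hold CACGTG, and the others do not. Each gives 29 bases 5′ to 3′ on the gene's strand, with the motif in capitals (ACGTG, or CACGT where the motif is on the other strand). The first 5 genes, which were lower in both lines, are *BNIP3* (chr10:131982040-131982068, minus strand), *P4HA1* (chr10:73096936-73096964, minus), *ERO1A* (chr14:52695656-52695684, minus), *DDIT4* (chr10:72273787-72273815, plus) and *BHLHE40* (chr3:4979251-4979279, plus). *PLOD2* (chr3:146161314-146161342, minus) and *WSB1* (chr17:27294045-27294073, plus) were lower in sh1-*TUG1* only, *PPFIA4* (chr1:203026361-203026389, plus) in sh2-*TUG1* only, and *AK4* (chr1:65147448-65147476, plus) and *CCNG2* (chr4:77157166-77157194, plus) in neither. The motif began at positions from −174 to −29 relative to the start of transcription, so that each stretch lies upstream of the first exon of that transcript.
BNIP3: cgcacgcgccgcACGTGccacacgcaccc
P4HA1: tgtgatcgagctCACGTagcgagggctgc
ERO1A: cgggcgccgcggCACGTccacaggctggg
DDIT4: agaacgttgcttACGTGcgcccggagtcc
BHLHE40: ggcagtggccagACGTGcctggagtcaca
PLOD2: caaacagtccagACGTGgggcccaggagg
WSB1: ggctgtgacgtcACGTGgccgcgcccctg
PPFIA4: ggcgctctcgtcACGTGcccggacccgag
AK4: gtcgcagggagcACGTGggccaggcaggc
CCNG2: ccgcggggagtcACGTGccccgccccctt

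The 3 genes of mitochondrial turnover and cell death fell in both lines, as did 7.10% of the genes in both tables. *BNIP3* encodes a receptor on the outer mitochondrial membrane that marks mitochondria for autophagy. Its level was 336, 357 and 333 CPM in the sh-Con libraries, 220.1, 202 and 220.2 in sh1-*TUG1* and 199, 205 and 195 in sh2-*TUG1*. Every knockdown library lay below every control library, and the log2 fold change was −0.68 ± 0.050 (SE) with the first hairpin (adjusted p = 1.88e-05) and −0.78 ± 0.048 with the second (adjusted p = 3.04e-06). *BNIP3L* encodes the related receptor known as NIX, and its level was 179, 189 and 186 CPM in sh-Con, 121, 119 and 116 in sh1-*TUG1* and 119, 119 and 128 in sh2-*TUG1*. It fell by a like amount in each line, at −0.64 ± 0.044 (adjusted p = 1.36e-05) and −0.60 ± 0.052 (adjusted p = 2.18e-05). *FAM162A*, which encodes a mitochondrial protein that takes part in cell death under low oxygen, was at 110.0, 109 and 107 CPM in sh-Con, 82.1, 78.2 and 75.4 in sh1-*TUG1* and 74.5, 77.3 and 74.1 in sh2-*TUG1*. Its knockdown libraries lay below the controls in both lines, at log2 fold changes of −0.47 ± 0.049 and −0.53 ± 0.048 (adjusted p = 0.000151 and 3.08e-05). None of the 3 differed between the lines (adjusted p = 0.0986, 0.529 and 0.317), although *BNIP3* passed that test without the second sh1-*TUG1* library (log2 difference −0.14, adjusted p = 0.0424). The gene *WDR5B*, which overlaps *FAM162A* on the other strand, had log2 fold changes of 0.0071 and 0.033, and no source states that strand was used in counting.

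The enzymes that modify collagen and fold secreted proteins were lower for 7 of 7 genes in sh1-*TUG1* and for 6 of 7 in sh2-*TUG1*. Of all genes tested, 12.3% and 21.9% were lower. The medians of the 7 genes were −0.57 and −0.78, beside 0.0027 and −0.0048 over all genes tested. *LOX* encodes lysyl oxidase, which cross-links collagen and elastin. Its level was 92.4, 94.5 and 93.03 CPM in sh-Con, 42.8, 46.3 and 42.98 in sh1-*TUG1* and 34.7, 32.4 and 36.8 in sh2-*TUG1*. The 3 groups did not overlap, and *LOX* changed by −1.08 ± 0.053 in sh1-*TUG1* (adjusted p = 1.59e-06), by −1.43 ± 0.061 in sh2-*TUG1* (adjusted p = 5.18e-07) and differed between the lines by −0.35 ± 0.058 (adjusted p = 0.000589). *ERO1A* encodes the oxidase that drives disulfide bond formation in the endoplasmic reticulum, and its level was 415, 425 and 409 CPM in sh-Con, 228, 228 and 231 in sh1-*TUG1* and 185, 189 and 203 in sh2-*TUG1*. It too was lowest in sh2-*TUG1*, at log2 fold changes of −0.86 ± 0.038 and −1.11 ± 0.050 (adjusted p = 8.58e-07 and 6.12e-07) and a difference of −0.25 ± 0.042 between the lines (adjusted p = 0.000639). *SRFBP1*, which overlaps *LOX* on the other strand, had log2 fold changes of −0.32 (adjusted p = 0.109) and −0.37 (adjusted p = 0.0330).

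The alpha subunits of collagen prolyl 4-hydroxylase, which lets the collagen triple helix form, fell in both lines. *P4HA1* was at 189, 199.7 and 185 CPM in sh-Con, 118, 111 and 115 in sh1-*TUG1* and 111, 112 and 111 in sh2-*TUG1*. The knockdown groups overlapped each other and stood below the controls, at −0.73 ± 0.048 (adjusted p = 8.93e-06) and −0.78 ± 0.048 (adjusted p = 3.08e-06). *P4HA2*, the gene of the second alpha subunit, was at 111, 127 and 124 CPM in sh-Con, 96.1, 95.97 and 94.8 in sh1-*TUG1* and 87.9, 82.8 and 80.3 in sh2-*TUG1*. It changed less, at −0.34 ± 0.057 (adjusted p = 0.00236) and −0.53 ± 0.065 (adjusted p = 0.00018), and the difference between the lines, −0.19 ± 0.056 (adjusted p = 0.0155), did not pass without the third sh2-*TUG1* library (−0.17, adjusted p = 0.0576). *SLC22A4*, on the other strand at *P4HA2*, had log2 fold changes of −0.086 and 0.21 (adjusted p = 0.835 and 0.600). *LOXL2*, a relative of *LOX*, was at 10.2, 9.58 and 12.5 CPM in sh-Con, 7.85, 6.07 and 8.38 in sh1-*TUG1* and 5.23, 6.14 and 6.71 in sh2-*TUG1*. Its fall in sh1-*TUG1* was −0.54 ± 0.15 (adjusted p = 0.0307) and failed the test without the third control (−0.42, adjusted p = 0.104) or without the first or the second sh1-*TUG1* library (−0.58 and −0.41, adjusted p = 0.066 and 0.0975), and that in sh2-*TUG1* was −0.84 ± 0.15 (adjusted p = 0.0015). Reads of *LOXL2* may be shared with *ENTPD4*, which overlaps it on the same strand and changed by −0.27 and −0.24 (adjusted p = 0.0184 and 0.0345).

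Of the lysyl hydroxylases of collagen, *PLOD1* was lower in both lines and *PLOD2* in sh1-*TUG1* only. *PLOD1* was at 302, 269.8 and 271 CPM in sh-Con, 191, 184 and 194 in sh1-*TUG1* and 178, 167 and 179.6 in sh2-*TUG1*. It changed by −0.57 ± 0.052 (adjusted p = 7.09e-05) and −0.68 ± 0.057 (adjusted p = 1.83e-05), with a difference between the lines of −0.11 (adjusted p = 0.0933, and 0.0251 without the first control library). *PLOD2*, which hydroxylates the telopeptides of collagen, was at 436, 456 and 432 CPM in sh-Con, 336, 326 and 319 in sh1-*TUG1* and 448, 440.3 and 438 in sh2-*TUG1*. The sh1-*TUG1* libraries lay below all others, while those of sh2-*TUG1* overlapped the controls. The log2 fold change of *PLOD2* was −0.43 ± 0.041 with the first hairpin (adjusted p = 9.15e-05) and 0.00039 ± 0.043 with the second (adjusted p = 0.994), and sh2-*TUG1* was higher than sh1-*TUG1* by 0.43 ± 0.038 (adjusted p = 4.42e-06).

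**Figure D2:**
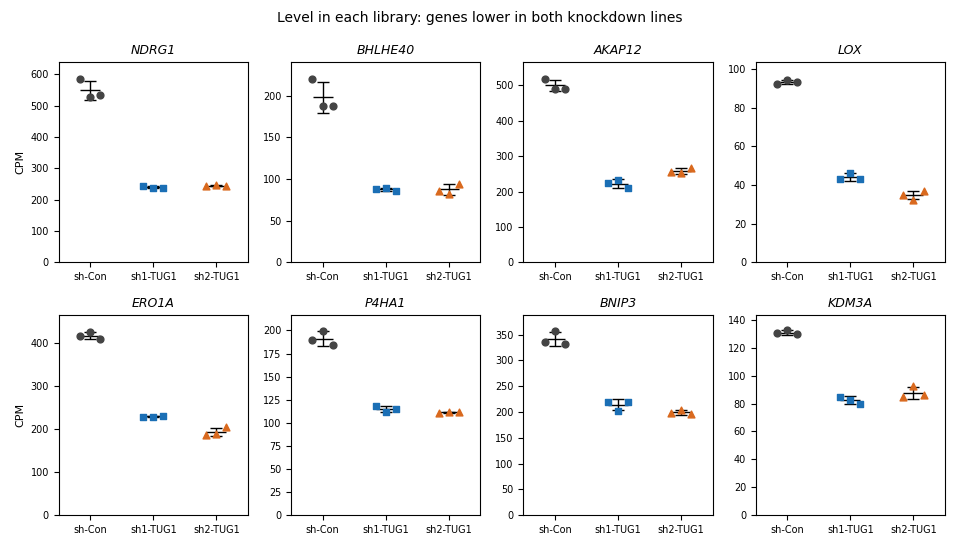
Level of 8 of the genes lower in both lines in each library, in TMM-normalized CPM (y axis, from 0), with points for single libraries, horizontal bars for the mean and error bars for the SD of 3 libraries. In each of the 8 panels all 6 knockdown libraries lie below the 3 control libraries, and *LOX* and *ERO1A* are lowest in sh2-TUG1.

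Among the chromatin genes, whose demethylases use oxygen as a substrate, 3 of 4 fell in both lines and *JMJD6* did not. Of the genes in both tables, 7.10% were lower in both lines. *KDM3A*, a demethylase of histone H3 lysine 9, was at 131, 132 and 129 CPM in sh-Con, 84.9, 82.8 and 79.9 in sh1-*TUG1* and 84.8, 92.5 and 85.8 in sh2-*TUG1*. The knockdown libraries of both lines stood below the controls, at −0.67 ± 0.045 (adjusted p = 1.24e-05) and −0.58 ± 0.052 (adjusted p = 2.8e-05). *KDM4B*, which acts on the trimethylated form of this residue, was at 56.7, 54.7 and 53.7 CPM in sh-Con, 47.2, 43.2 and 44.6 in sh1-*TUG1* and 45.5, 42.1 and 42.97 in sh2-*TUG1*. Its change was smaller in both lines, at −0.29 ± 0.055 (adjusted p = 0.00436) and −0.34 ± 0.057 (adjusted p = 0.00115). *YEATS2*, a reader of acylated histones, was at 62.02, 59.5 and 61.7 CPM in sh-Con, 49.3, 51.8 and 51.8 in sh1-*TUG1* and 44.9, 43.7 and 46.6 in sh2-*TUG1*. It changed by −0.26 ± 0.051 (adjusted p = 0.00535) and −0.44 ± 0.054 (adjusted p = 0.000201), and its difference between the lines, −0.18 ± 0.049 (adjusted p = 0.0128), did not pass without the second sh2-*TUG1* library (−0.16, adjusted p = 0.0517). *JMJD6*, which encodes a lysyl hydroxylase of nuclear proteins, was at 57.5, 52.9 and 52.5 CPM in sh-Con, 51.6, 45.9 and 51.7 in sh1-*TUG1* and 67.5, 68.9 and 71.4 in sh2-*TUG1*. The sh1-*TUG1* libraries lay just under the controls and those of sh2-*TUG1* above them, so that *JMJD6* was not called in sh1-*TUG1* (−0.13 ± 0.065, adjusted p = 0.188), rose in sh2-*TUG1* (0.35 ± 0.058, adjusted p = 0.00115) and differed between the lines by 0.48 ± 0.061 (adjusted p = 8.41e-05).

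Of 6 transcription regulators, 5 passed as lower in sh1-*TUG1*, beside 12.3% of all genes tested. In sh2-*TUG1* 2 were lower and *MAFF* was higher, beside 21.9% and 21.6% of all genes. With 6 genes, the counts in sh2-*TUG1* cannot be told from these shares. *BHLHE40* encodes the repressor also known as DEC1. Its level was 219, 187 and 188 CPM in sh-Con, 87.5, 89.1 and 85.9 in sh1-*TUG1* and 85.7, 82.1 and 94.4 in sh2-*TUG1*. The knockdown groups overlapped each other far below the controls, and the log2 fold change was −1.18 ± 0.064 (adjusted p = 2.83e-06) and −1.18 ± 0.076 (adjusted p = 4.14e-06), that is, −55.8% and −55.9%. *MXI1*, which encodes a partner of MAX that opposes MYC, was at 38.5, 40.9 and 39.8 CPM in sh-Con, 28.7, 30.3 and 28.4 in sh1-*TUG1* and 27.1, 28.1 and 28.2 in sh2-*TUG1*. It changed by −0.45 ± 0.057 (adjusted p = 0.000517) and −0.52 ± 0.058 (adjusted p = 0.000113), with no overlap with the controls.

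Of the other regulators, *MAFF*, *KLF10* and *RORA* differed between the lines, and *ZNF395* is described further below. *MAFF*, a small MAF protein that pairs with other bZIP factors, was at 51.4, 53.2 and 49.8 CPM in sh-Con, 44.8, 42.3 and 43.5 in sh1-*TUG1* and 65.8, 72.3 and 69.4 in sh2-*TUG1*. The 3 groups did not overlap: sh1-*TUG1* lay below the controls and sh2-*TUG1* above them. *MAFF* changed by −0.24 ± 0.053 in sh1-*TUG1* (adjusted p = 0.00924), by 0.42 ± 0.059 in sh2-*TUG1* (adjusted p = 0.000396) and differed between the lines by 0.67 ± 0.054 (adjusted p = 2.46e-06). *KLF10*, a zinc finger factor induced by TGF-beta, was at 27.1, 31.7 and 28.5 CPM in sh-Con, 21.5, 15.7 and 18.7 in sh1-*TUG1* and 25.2, 26.3 and 26.3 in sh2-*TUG1*. All 3 sh1-*TUG1* libraries were lowest, the change was −0.64 ± 0.11 (adjusted p = 0.00254) there and −0.17 ± 0.072 (adjusted p = 0.089) in sh2-*TUG1*, and the difference between the lines was 0.48 ± 0.099 (adjusted p = 0.00242). The sh2-*TUG1* libraries of *KLF10* lay below the controls as well, and the change there passed without the first control library (−0.22, adjusted p = 0.0346). *RORA*, a nuclear receptor, was at 36.1, 43.1 and 37.7 CPM in sh-Con, 32.2, 30.1 and 30.9 in sh1-*TUG1* and 41.4, 36.8 and 39.5 in sh2-*TUG1*. Its fall in sh1-*TUG1*, −0.33 ± 0.075 (adjusted p = 0.0112), did not pass without the second sh1-*TUG1* library (−0.30, adjusted p = 0.0525), and the lines differed by 0.34 ± 0.073 (adjusted p = 0.00319). *PLA2G6*, on the other strand at *MAFF*, had log2 fold changes of −0.026 and −0.31 (adjusted p = 0.936 and 0.242).

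**Figure D3:**
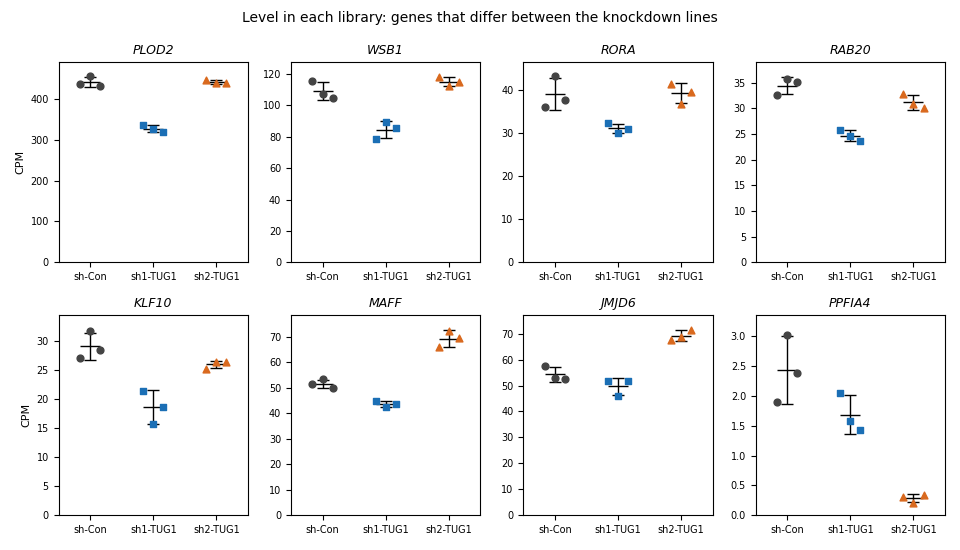
Level of 8 genes that differed between the knockdown lines in each library, in TMM-normalized CPM (y axis, from 0), with points for single libraries, horizontal bars for the mean and error bars for the SD of 3 libraries. *PLOD2*, *WSB1*, *RORA* and *RAB20* are lowest in sh1-TUG1, *MAFF* and *JMJD6* are highest in sh2-TUG1, and *PPFIA4* is near 0 in sh2-TUG1.

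The genes of growth, stress and signalling included 5 of 7 that fell in sh1-*TUG1* and 4 of 7 that fell in sh2-*TUG1*. Of all genes tested, 12.3% and 21.9% were lower. *NDRG1*, a gene tied to differentiation and growth arrest, was at 584, 527 and 535 CPM in sh-Con, 242, 238 and 237 in sh1-*TUG1* and 243, 246 and 242 in sh2-*TUG1*. The 6 knockdown libraries lay close together, and the log2 fold change was −1.20 ± 0.047 (adjusted p = 5.36e-07) and −1.17 ± 0.050 (adjusted p = 5.18e-07), that is, −56.4% and −55.6%. *AKAP12*, a scaffold for protein kinases A and C, was at 518, 491 and 491 CPM in sh-Con, 225, 234 and 209 in sh1-*TUG1* and 256, 252 and 268 in sh2-*TUG1*. It changed by −1.17 ± 0.049 (adjusted p = 5.95e-07) and −0.95 ± 0.047 (adjusted p = 9.56e-07), and sh2-*TUG1* lay above sh1-*TUG1* by 0.22 ± 0.048 (adjusted p = 0.00345). *ERRFI1* encodes MIG6, an inhibitor of the EGF receptor, and was at 537, 577 and 535 CPM in sh-Con, 311, 287 and 286 in sh1-*TUG1* and 393, 401 and 399.9 in sh2-*TUG1*. Both lines stood below the controls and apart from each other, at −0.90 ± 0.050 (adjusted p = 3.18e-06) and −0.47 ± 0.046 (adjusted p = 5.32e-05), with a difference of 0.43 ± 0.045 (adjusted p = 1.83e-05).

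*DDIT4* encodes REDD1, which restrains mTORC1. Its level was 224, 219.6 and 222 CPM in sh-Con, 144, 153 and 148 in sh1-*TUG1* and 142, 136 and 121 in sh2-*TUG1*. It fell in both lines, at −0.58 ± 0.042 (adjusted p = 1.84e-05) and −0.74 ± 0.061 (adjusted p = 1.59e-05). The lines differed by −0.16 ± 0.055 (adjusted p = 0.0329), a call lost without the second or the third sh1-*TUG1* library (adjusted p = 0.116 and 0.0745) or the second or the third sh2-*TUG1* library (adjusted p = 0.0526 and 0.0981), at log2 differences of −0.14, −0.16, −0.18 and −0.10. *WSB1*, which encodes a substrate receptor of an E3 ubiquitin ligase, was at 116, 108 and 104 CPM in sh-Con, 78.9, 89.4 and 85.3 in sh1-*TUG1* and 118, 112 and 115 in sh2-*TUG1*. The sh1-*TUG1* libraries lay below all others, and those of sh2-*TUG1* overlapped the controls. The change of *WSB1* was −0.37 ± 0.061 (adjusted p = 0.002) in sh1-*TUG1* and 0.074 ± 0.054 (adjusted p = 0.292) in sh2-*TUG1*, and the lines differed by 0.45 ± 0.056 (adjusted p = 7.47e-05). Levels in sh-Con were also divided by the merged length of all annotated exons of a gene, which can exceed that of its main transcript. By this measure *ERRFI1* and *DDIT4* had the highest levels of the 37 genes, at 131 and 108 CPM per kb. *BNIP3* followed at 64.2 and *P4HA1* at 61.8, and *PPFIA4* and *TPBG* had the lowest levels, at 0.250 and 0.385 CPM per kb.

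The 10 genes of membranes, trafficking and other roles held 6 that were lower in sh1-*TUG1*, where 12.3% of all genes tested were. In sh2-*TUG1*, 5 were lower, beside 21.9% of all genes. *SPAG4* encodes a SUN-domain protein of the nuclear envelope and was at 38.1, 33.2 and 35.7 CPM in sh-Con, 20.1, 20.9 and 19.7 in sh1-*TUG1* and 13.9, 13.6 and 12.3 in sh2-*TUG1*. The 3 groups did not overlap, and *SPAG4* changed by −0.82 ± 0.068 (adjusted p = 4.33e-05), by −1.43 ± 0.079 (adjusted p = 1.58e-06) and between the lines by −0.61 ± 0.074 (adjusted p = 5.51e-05). *ANKZF1*, which takes part in ribosome-associated quality control, was at 55.9, 57.4 and 52.7 CPM in sh-Con, 39.9, 41.9 and 40.7 in sh1-*TUG1* and 30.7, 31.7 and 30.9 in sh2-*TUG1*. It too was lowest in sh2-*TUG1*, at −0.44 ± 0.055 (adjusted p = 0.000433) and −0.83 ± 0.057 (adjusted p = 5.99e-06), with a difference of −0.39 ± 0.052 (adjusted p = 0.000101). *GLB1L*, on the other strand at *ANKZF1*, had log2 fold changes of −0.21 (adjusted p = 0.337) and −0.90 (adjusted p = 0.00318), so that the partner gene was lower in sh2-*TUG1* as well. *FUT11*, a fucosyltransferase, was at 15.3, 14.6 and 15.001 CPM in sh-Con, 9.58, 10.4 and 10.2 in sh1-*TUG1* and 9.63, 9.25 and 9.33 in sh2-*TUG1*, and changed by −0.57 ± 0.086 (adjusted p = 0.00131) and −0.67 ± 0.087 (adjusted p = 0.000268). *VLDLR*, the receptor of very low density lipoprotein, was at 70.2, 76.9 and 76.99 CPM in sh-Con, 55.7, 63.5 and 58.1 in sh1-*TUG1* and 63.9, 61.3 and 64.3 in sh2-*TUG1*, and changed by −0.34 ± 0.066 (adjusted p = 0.00522) and −0.24 ± 0.059 (adjusted p = 0.00826). For both genes the knockdown libraries lay below the controls, and the lines did not differ by the test (adjusted p = 0.374 and 0.224).

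*PPFIA4*, which encodes a liprin, was the gene that passed in sh2-*TUG1* only. Its counts were low, 62, 102 and 89 in sh-Con, 70, 57 and 54 in sh1-*TUG1* and 10, 7 and 13 in sh2-*TUG1*. On the CPM scale these are 1.89, 3.02 and 2.38 in sh-Con, 2.05, 1.57 and 1.43 in sh1-*TUG1* and 0.308, 0.210 and 0.337 in sh2-*TUG1*. The sh1-*TUG1* libraries overlapped the controls and the sh2-*TUG1* libraries lay below both, at −0.53 ± 0.25 (adjusted p = 0.151) and −3.07 ± 0.31 (adjusted p = 6.16e-05), and the lines differed by −2.54 ± 0.30 (adjusted p = 5.07e-05). *RAB20*, a small GTPase, was at 32.5, 35.7 and 35.04 CPM in sh-Con, 25.8, 24.6 and 23.6 in sh1-*TUG1* and 32.7, 30.8 and 29.98 in sh2-*TUG1*. It was lowest in sh1-*TUG1*, at −0.48 ± 0.066 (adjusted p = 0.000711), beside −0.15 ± 0.065 in sh2-*TUG1* (adjusted p = 0.0944, and −0.19 and 0.0392 without the first control library), and the lines differed by 0.34 ± 0.062 (adjusted p = 0.00109). *ANKRD37*, an ankyrin-repeat protein, was at 6.28, 6.68 and 4.93 CPM in sh-Con, 2.69, 3.06 and 4.43 in sh1-*TUG1* and 4.86, 4.55 and 4.56 in sh2-*TUG1*. Its fall in sh1-*TUG1*, −0.81 ± 0.21 (adjusted p = 0.0221), did not pass without the second control or the first or the second sh1-*TUG1* library (−0.73, −0.67 and −0.74, adjusted p = 0.0729, 0.0774 and 0.0811). In sh2-*TUG1* the change was −0.36 ± 0.16 (adjusted p = 0.103), and *ANKRD37* was the gene of the 7 whose lines did not differ by the test (0.45 ± 0.20, adjusted p = 0.0884, and 0.69 and 0.0182 without the third sh1-*TUG1* library). *UFSP2*, on the other strand at *ANKRD37*, had log2 fold changes of −0.16 and −0.23 (adjusted p = 0.165 and 0.0572).

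**Figure D4:**
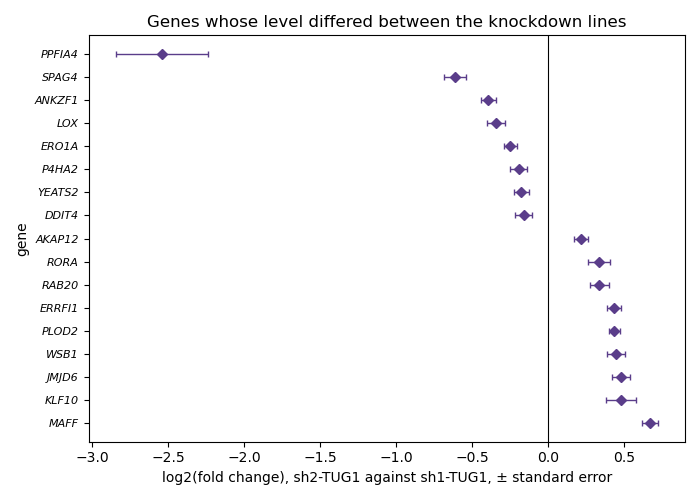
Log2 fold change of sh2-TUG1 against sh1-TUG1 (x axis) with its standard error for the 17 genes whose adjusted p was under 0.05 in the fit of 9 libraries (y axis). The 8 genes lower in sh2-TUG1 reach from −2.54 (*PPFIA4*) to −0.16 (*DDIT4*), and the 9 higher in sh2-TUG1 from 0.22 (*AKAP12*) to 0.67 (*MAFF*).

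Among the 7 genes called lower in neither line, 4 had a low first control library that moved the result. For *ZNF395*, a zinc finger factor, the sh-Con libraries were at 16.5, 56.4 and 50.3 CPM, those of sh1-*TUG1* at 31.7, 34.6 and 34.7 CPM and those of sh2-*TUG1* at 27.6, 24.1 and 28.5 CPM. The first control library lay below all 6 knockdown libraries and the other two above them. With it, the log2 fold change of *ZNF395* was −0.29 ± 0.33 (adjusted p = 0.573) and −0.62 ± 0.34 (adjusted p = 0.169), and without it −0.67 (adjusted p = 7.3e-05) and −0.999 (adjusted p = 3.38e-05), with a difference between the lines of −0.33 (adjusted p = 0.00338). *FBXO16*, which overlaps *ZNF395* on the same strand and may share its reads, had log2 fold changes of −1.02 and −1.04 (adjusted p = 0.115 and 0.103). *CCNG2*, a cyclin linked to cell cycle arrest, was at 23.6, 34.6 and 31.98 CPM in sh-Con, 27.6, 26.3 and 28.3 in sh1-*TUG1* and 27.3, 25.3 and 24.1 in sh2-*TUG1*. Its changes were −0.14 ± 0.12 and −0.24 ± 0.13 (adjusted p = 0.455 and 0.155), and −0.29 and −0.38 (adjusted p = 0.00874 and 0.00332) without the first control library.

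*INSIG2*, which holds back the activation of SREBP factors, was at 130.3, 179.6 and 177 CPM in sh-Con, 150.0, 145 and 146 in sh1-*TUG1* and 169.5, 166 and 137 in sh2-*TUG1*. The first control library lay below all 6 knockdown libraries, as it did for *CCNG2*. The changes of *INSIG2* were −0.15 ± 0.10 and −0.046 ± 0.12 (adjusted p = 0.35 and 0.789), and that in sh1-*TUG1* passed without the first control library (−0.29, adjusted p = 0.000327). *TMEM45A*, which encodes a membrane protein, was at 30.8, 46.5 and 42.5 CPM in sh-Con, 31.9, 31.1 and 30.1 in sh1-*TUG1* and 34.1, 36.5 and 30.1 in sh2-*TUG1*. The first control again lay among the knockdown libraries, and the changes of −0.37 ± 0.13 and −0.25 ± 0.14 (adjusted p = 0.061 and 0.161) became −0.53 and −0.41 (adjusted p = 0.000151 and 0.00425) without it. Across 11189 genes with 100 counts or more in every control, 136 (1.22%) were over 0.5 lower on the log2 scale in the first control library than in the other two, beside 99 (0.885%) for the second and 57 (0.509%) for the third. Of the 37 genes, 3 were that low in the first control library (*ZNF395*, *TMEM45A* and *PPFIA4*, at log2 ratios of −1.69, −0.53 and −0.51), while *CCNG2* and *INSIG2*, at −0.495 and −0.45, were not. In the second control library 1 of the 37 was that low, and 0 in the third. The limit of 100 counts was not applied to the 37, and *PPFIA4*, with 62 counts in the first control library, falls short of it. Without the first control library 33 of the 37 genes were lower in sh1-*TUG1* (14.5% of all genes), 28 in sh2-*TUG1* (21.6%) and 27 in both (7.64%). The remaining 2 genes of this group, *TPBG*, a membrane glycoprotein of trophoblast and tumor cells, and *AK4*, a mitochondrial adenylate kinase whose sh1-*TUG1* libraries lay just above the controls, had log2 fold changes of 0.22 and 0.12 in sh1-*TUG1* and 0.16 and 0.048 in sh2-*TUG1* (adjusted p from 0.188 to 0.655).

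**Figure D5:**
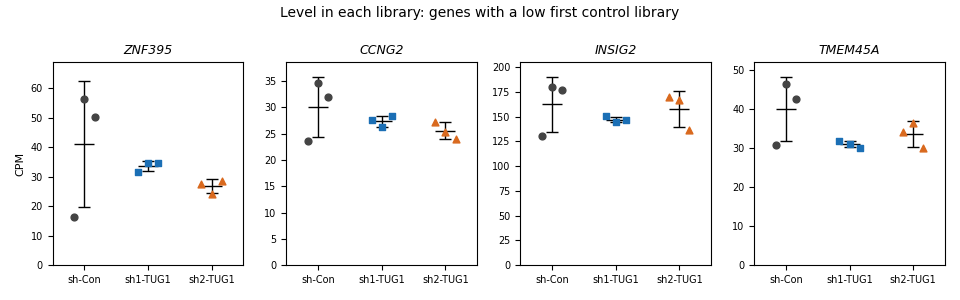
Level of *ZNF395*, *CCNG2*, *INSIG2* and *TMEM45A* in each library, in TMM-normalized CPM (y axis, from 0), with points for single libraries in the order of their numbers, horizontal bars for the mean and error bars for the SD of 3 libraries. The first control point is the lowest of the 3 controls in every panel, at 16.5 CPM for *ZNF395* beside 56.4 and 50.3 CPM in the other two.

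Of the other branches of the hypoxia response, most glycolytic and secreted targets were lower too. All 15 glycolytic and glucose-transport targets fell in both lines, with medians of −0.71 and −0.88, and of 11 secreted, pH and iron targets 11 fell in sh1-*TUG1* and 8 in the second line. The 10 regulators of the pathway moved both ways: 4 fell and 1 rose in sh1-*TUG1*, and 4 fell and 3 rose in sh2-*TUG1*. Of all genes tested, 12.3% were lower and 12.5% higher in sh1-*TUG1*, and 21.9% and 21.6% in sh2-*TUG1*. Both lines were lower for 7.10% of the genes in both tables. Among the 6 genes named from these lists for their fall in whichever line fell less, *IGFBP3*, which binds insulin-like growth factors, changed by −1.63 ± 0.062 and −1.60 ± 0.075 (adjusted p = 5.36e-07 and 7.31e-07). *SLC2A3* (a glucose transporter), *CA12* (a carbonic anhydrase), *EGLN3* (an oxygen sensor of the pathway), *EPO* (erythropoietin) and *PDK1* (a kinase that restrains pyruvate dehydrogenase) changed by −1.45, −1.40, −1.30, −1.23 and −1.19 in sh1-*TUG1* and by −3.28, −1.75, −1.47, −3.06 and −1.42 in sh2-*TUG1*. *HIF1A* itself was at −0.044 (adjusted p = 0.459) in sh1-*TUG1* and rose by 0.34 (adjusted p = 0.000902) in sh2-*TUG1*. *EPAS1* changed by −0.18 (adjusted p = 0.015) and −0.30 (adjusted p = 0.000672). The hepatocyte markers moved both ways too, 2 lower and 5 higher in sh1-*TUG1* and 5 lower and 3 higher in sh2-*TUG1* of 10, and their part in the results above was not tested.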

How the data were processed

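RNA-seq measured gene levels in 9 HepG2 libraries of 3 groups. For each knockdown line the authors deposited read counts per gene (raw, not normalized) beside FPKM values, false discovery rates and log2 fold changes of their own comparison, and the last 3 kinds were not used here. The submitters' processing notes name HISAT2, StringTie and GRCh38, and the counting tool and its use of strand are not given in the sources used here. The library kit (NEBNext Ultra RNA) is stated without a strand option. The control counts were identical in both tables. *TUG1* and *STC1* were not analysed here.

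Groups came from the sample titles. The members and lists were chosen with earlier results of these data known. Every listed gene with a row was named, with values per library where its adjusted p was under 0.05 in either line or between the lines. Of the other genes of the pathway, up to 6 were named, ranked by the smaller of their changes in the 2 lines, among those that passed in both, and of these lists *HIF3A*, *EDN1* and 1 further gene are not reported here. Counts were tested with edgeR 4.0.16 in R 4.3.3 (TMM factors, filterByExpr, which removed 0 genes, quasi-likelihood test, Benjamini–Hochberg adjustment over all genes of a table). The fits against sh-Con held 6 libraries each, and the one between the knockdown lines held all 9, over the 12854 shared genes. CPM values use TMM factors over all 9 libraries, the SD is over 3 libraries, and fold changes with their SE come from the fits. Library totals were 33054291 to 39393293 counts, and precision is lowest for the genes with few counts, such as *PPFIA4*. The smallest p of an exact permutation test of 3 libraries against 3 is 0.1, so single genes were not tested that way. The alternatives were RLE factors, library size alone, other filters, DESeq2 1.42.0, another set of libraries in the fit, a block on the replicate number, a threshold of 1.5-fold within the test, and leaving out each library. The fits were tested on simulated data. Positions and overlaps came from GENCODE 29, and promoter windows from RefSeq, in which 27 of the 37 genes matched by symbol. Figures were drawn with matplotlib 3.10.9 in Python 3.11.15.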

Additional observations from a re-analysis of the deposited data

Results flagged for a closer look

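The levels of 17 genes differed between the 2 knockdown lines by edgeR's quasi-likelihood test in the fit of all 9 libraries (adjusted p under 0.05). Of all genes tested, 42.7% differed, so the share among the 37 genes is near the background and is not particular to them. The log2 difference of sh2-*TUG1* against sh1-*TUG1* was negative for 8 of them: −2.54 for *PPFIA4*, −0.61 for *SPAG4*, −0.39 for *ANKZF1*, −0.35 for *LOX*, −0.25 for *ERO1A*, −0.19 for *P4HA2*, −0.18 for *YEATS2* and −0.16 for *DDIT4*. Apart from *PPFIA4*, these genes were lower than sh-Con in both lines. The difference was positive for 9 genes: 0.67 for *MAFF*, 0.48 for *KLF10*, 0.48 for *JMJD6*, 0.45 for *WSB1*, 0.43 for *PLOD2*, 0.43 for *ERRFI1*, 0.34 for *RAB20*, 0.34 for *RORA* and 0.22 for *AKAP12*. Of these 9, *ERRFI1* and *AKAP12* were lower than sh-Con in both lines.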

How the results depend on the processing

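With RLE factors and with the replicate number as a block, each of the 111 fold changes (37 genes in 3 comparisons) stayed on its side of 0 and of the threshold. DESeq2 and the fit with another set of libraries changed no direction and added 1 and 3 calls. With library size alone, 103 were the same and 4 passed anew, and the log2 fold change turned negative for *PLOD2* (−0.035) and *RORA* (−0.029) in sh2-*TUG1* and for *BNIP3L* (−0.026) and *NDRG1* (−0.035) between the lines, none of them called. This scaling called 3532 genes lower and 1912 higher in sh2-*TUG1* against sh1-*TUG1*, beside 2786 and 2702 with TMM factors, and the medians of the 37 genes became −0.46 and −0.57. Omitting the filter, or asking for 1 CPM in 3 libraries, removed 0 genes and gave the values of the report.

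Tested against a fold change of 1.5, 6 genes were lower in sh1-*TUG1* (6 also as DEGs; 0.530% of all genes), 10 in sh2-*TUG1* (3.08%), 5 in both (0.420%), 1 in sh1-*TUG1* only (0.117%) and 5 in sh2-*TUG1* only (2.68%), 0 were higher in sh2-*TUG1*, and 1 differed between the lines (2.57%). The same replicate numbers did not pair the samples (correlations of deviations from −0.32 to 0.030). The median in sh2-*TUG1* with the block was −0.52, and over all genes the block gave 1347 lower and 1422 higher calls in sh1-*TUG1*, and 2490 and 2431 in sh2-*TUG1*.

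Leaving out single libraries gave medians of −0.53 to −0.44 for sh1-*TUG1* and of −0.54 to −0.49 for sh2-*TUG1*, and 1 to 2 genes lower in sh2-*TUG1* only. Lower calls covered 26 to 33 genes (sh1-*TUG1*), 23 to 28 (sh2-*TUG1*) and 21 to 27 (both). Over all genes, the calls moved as well. From 1019 to 1884 of 13017 genes were lower in sh1-*TUG1* and from 2287 to 2792 of 12953 in sh2-*TUG1*. Without the first control library, 7.64% of the genes in both tables were lower in both lines and 14.1% in sh2-*TUG1* only. Values near 0 changed sign, and none of these was called. In sh2-*TUG1* against sh-Con, *PLOD2* went to −0.0088, −0.013 and −0.0072, *RORA* to −0.046, −0.016 and −0.031, *INSIG2* to 0.035, 0.022 and 0.046, *TPBG* to −0.066 and *AK4* to −0.019. *TPBG* went to −0.011 in sh1-*TUG1*. Between the lines *BNIP3L* went to −0.0022, *BHLHE40* to 0.011, 0.012 and 0.041, and *TPBG* to 0.061. The cause of these changes was not tested. Depth limits *PPFIA4* most, with 7 to 13 counts in the sh2-*TUG1* libraries.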
